A study of Mus musculus with 14 samples.

Results

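Glycolysis splits glucose into pyruvate in the cytosol, and lactate dehydrogenase with a membrane transporter then turns pyruvate into lactate and lets it leave the cell. The gene set described here follows that route in the mouse kidney. It holds 9 genes: the hexokinases Hk1 and Hk2, the phosphofructokinase Pfkp and its activator-making enzyme Pfkfb3, the aldolase Aldoa, the pyruvate kinases Pkm and Pklr, the lactate dehydrogenase Ldha and the lactate exporter Slc16a3, also known as MCT4. They were chosen by symbol as a pathway, with earlier results of these data known. All 9 were present among the 24411 gene symbols of the count files.

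Bulk RNA-seq counts came from kidneys of male C57/B6 mice, 8 weeks old, at the time labelled day 0 (4 libraries) and on days 1 and 3 (5 libraries each) following ischemia/reperfusion injury of the kidney (IRI). IRI is an interruption of the renal blood supply followed by its return, and it injures the tubules most. No transgene, knockdown or drug is named for these mice, and whether the day 0 animals had surgery is not stated in the sources used here. The labels number the libraries of a day but do not say that each came from a separate animal, so the p-values below measure the spread between these libraries, which may be partly technical. Between 12485579 and 20476979 reads per library fell on genes. Levels are given as CPM, a gene's share of the gene reads of its library after TMM scaling for library composition, and gene positions are those of GENCODE vM21 on GRCm38 (mm10). The number in the name of a count file had 1 digit for all 4 libraries of day 0, for replicates 3, 4 and 5 of day 1 and for replicates 4 and 5 of day 3, and it had 3 digits for the others. What this number format marks is not stated, so results for the members are also given within each format, as for a possible batch. No day 0 library has a 3-digit number, so an effect of that format and an effect of injury cannot be told apart in a contrast of 3-digit libraries with day 0.

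In the healthy kidney the proximal tubule burns fatty acids and lactate and makes glucose, while the later tubule segments carry out more glycolysis. Hexokinase traps glucose in the cell, and phosphofructokinase commits it to glycolysis. Several enzymes of the pathway exist as isozymes encoded by separate genes: Pklr is typical of tissues that also make glucose, while Hk2, Aldoa, Pkm, Ldha and Slc16a3 are typical of tissues that use glucose fast. Many of these genes are textbook targets of hypoxia-inducible factors, which bind the core letters ACGTG.

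The promoters of 3 members are shown because they set the induced genes Hk2 and Slc16a3 beside Ldha, which did not pass edgeR's test at either day. Each line gives the 250 bases before the RefSeq transcription start (GRCm38.p6), 5′ to 3′ on the gene's strand, with ACGTG or its reverse complement CACGT in capitals. The windows are chr6:82774455-82774704 on the minus strand for Hk2, chr11:120948817-120949066 on the plus strand for Slc16a3 and chr7:46845554-46845803 on the plus strand for Ldha. The Hk2 and Ldha windows lay outside every annotated exon, and 14 bases of the Slc16a3 window lay in an exon.
Hk2: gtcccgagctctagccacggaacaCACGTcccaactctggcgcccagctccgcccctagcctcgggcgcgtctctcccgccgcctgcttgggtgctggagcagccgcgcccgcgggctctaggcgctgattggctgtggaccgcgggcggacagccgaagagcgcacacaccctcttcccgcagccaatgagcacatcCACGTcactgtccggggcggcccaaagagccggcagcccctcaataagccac
Slc16a3: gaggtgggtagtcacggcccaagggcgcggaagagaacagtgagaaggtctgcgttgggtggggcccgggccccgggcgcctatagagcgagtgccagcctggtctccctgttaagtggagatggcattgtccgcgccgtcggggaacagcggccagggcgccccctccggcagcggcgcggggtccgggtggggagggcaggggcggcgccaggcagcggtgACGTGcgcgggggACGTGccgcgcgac
Ldha: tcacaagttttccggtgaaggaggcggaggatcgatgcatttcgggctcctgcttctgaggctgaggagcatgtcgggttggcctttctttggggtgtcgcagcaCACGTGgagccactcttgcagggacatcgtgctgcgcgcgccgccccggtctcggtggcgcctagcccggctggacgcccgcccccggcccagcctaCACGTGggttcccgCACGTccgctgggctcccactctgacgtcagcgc

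In the Hk2 window the motif began 226 and 52 bases before the start, and in the Slc16a3 window 27 and 14 bases before it. The Ldha window held it at 3 places, 145, 48 and 34 bases before the start, and 2 of them were the palindrome CACGTG, which reads ACGTG on both strands and is also the E-box core. It is the first of 2 Ldha windows in the table, and the other, chr7:46846832-46847081 before a second start, held neither motif. Searched on both strands of the 250 upstream bases, 6 of the 9 members had ACGTG in at least 1 of their RefSeq windows, against 18.5% of the 27025 genes in the table. By windows it was 8 of 16, against 16.6% of 32851, with the same site of Aldoa counted in 2 windows that overlap. Hk2, Pfkfb3, Aldoa, Pkm, Ldha and Slc16a3 held it, and Hk1, Pfkp and Pklr did not. CACGTG occurred in 6.02% of all windows and in 2 windows of the members, Ldha and Pfkfb3. The background was not matched for expression, base composition or number of windows, so these shares are no test of enrichment. A match describes the letters of the window and is no evidence of binding, and no match says only that these letters are not in this window.

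At day 1 after IRI, 4 of the 9 members were higher than at day 0 and none was lower. Hk2 rose 11.6-fold, Slc16a3 3.62-fold, Pfkfb3 2.35-fold and Pkm 1.55-fold. In the same edgeR quasi-likelihood test, with Benjamini-Hochberg adjustment over 14300 genes and an adjusted p under 0.05 as the threshold, 42.1% of all genes were called, so the members' 4 of 9 was close to that background. At day 3 Hk2 (7.37-fold) and Slc16a3 (3.31-fold) were higher and Hk1 was lower, 3 of 9 against 33.3% of all genes. The median log2 fold change of the members was 0.51 at day 1 and 0.21 at day 3, and that of all genes tested was 0.01 and 0.05. All 9 members passed the expression filter. RNA from the whole organ cannot tell fewer cells of a type from less RNA per cell.

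**Figure D1:**
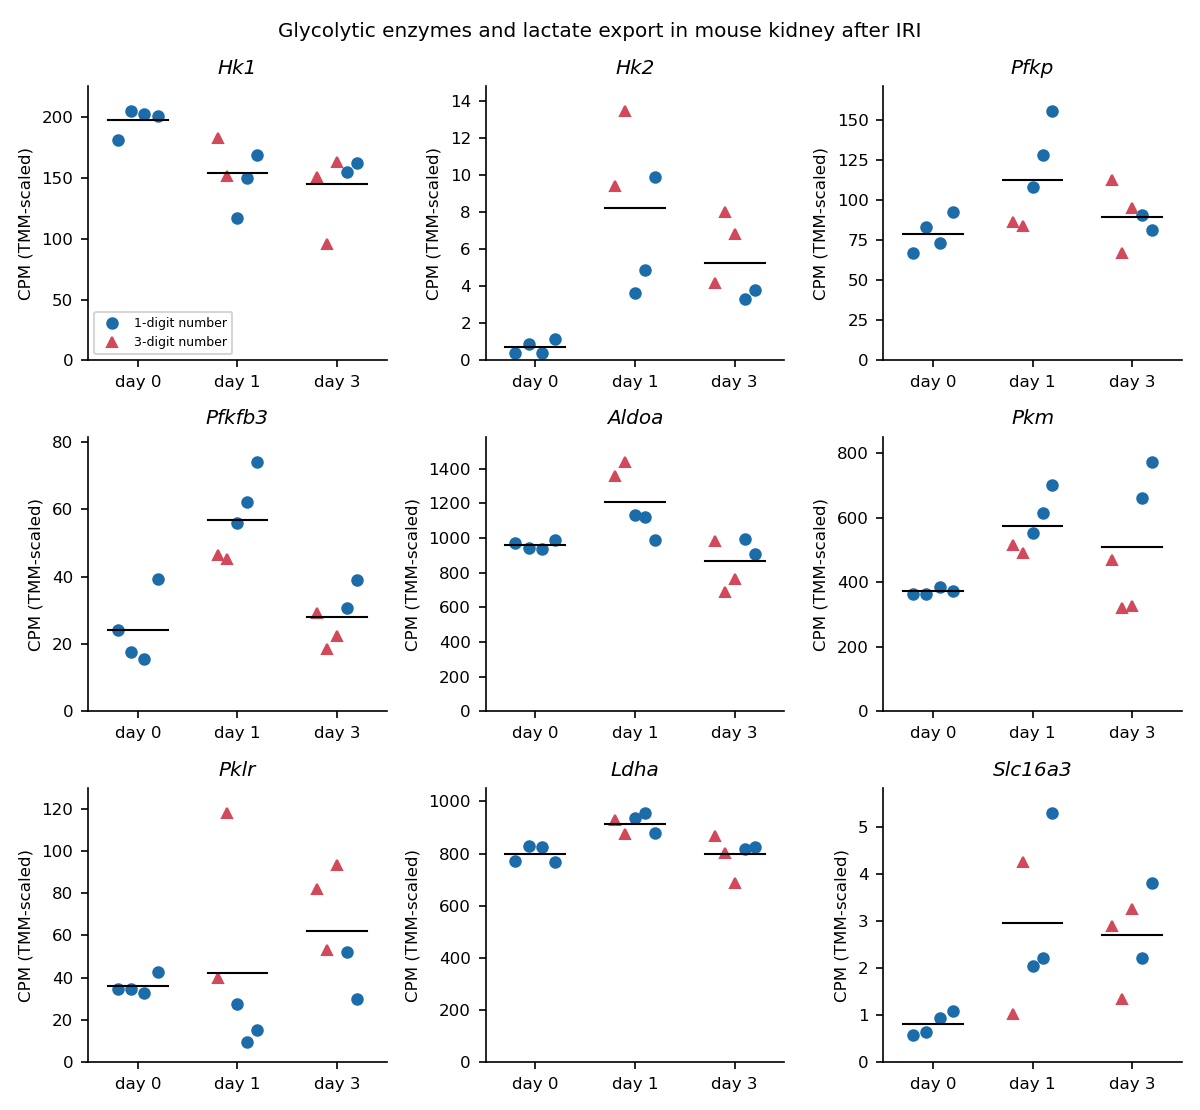
Level of each member in every library, in TMM-scaled CPM (vertical axes from 0) by day after IRI (horizontal). Circles are libraries with 1-digit and triangles those with 3-digit file numbers, and each bar is the mean of a day. Every injured library has more Hk2 than every day 0 library, Pfkfb3 stands high at day 1 alone, and Pklr parts by number format at day 1.

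Hk2, the inducible hexokinase of muscle, fat and many tumours, lies at chr6:82725025-82774454 on the minus strand. It was almost silent at day 0, with 0.403, 0.883, 0.379 and 1.15 CPM from 6 to 19 reads per library. At day 1 the 5 libraries had 9.38, 13.4, 3.61, 4.86 and 9.89 CPM, and at day 3 they had 4.17, 8.00, 6.83, 3.30 and 3.82 CPM. All 10 injured libraries therefore lay above all 4 of day 0. Day 0 averaged 0.703 ± 0.377 CPM (SD, n = 4), day 1 averaged 8.24 ± 4.0 and day 3 averaged 5.22 ± 2.07 (SD, n = 5 each). Against day 0 the gene was up by 3.54 ± 0.49 (log2, standard error) on day 1, with an adjusted p of 0.000152 from edgeR. The day 3 estimate was 2.88 ± 0.48 with an adjusted p of 0.000767 from edgeR. Both calls held in all 14 fits that each left out 1 library and in every other setting tried that kept the gene. Day 3 against day 1 gave -0.66 (95% interval -1.43 to 0.12, adjusted p = 0.267 by edgeR), a decline that did not pass the test. Within the 1-digit libraries Hk2 was higher by 3.10 at day 1 and by 2.32 at day 3, and the 3-digit libraries against day 0 gave 4.01 and 3.16. Hk2 was thus above day 0 in the libraries of both formats, though only the 1-digit contrast lies within a format.

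Hk1, the hexokinase that most tissues express at all times, lies at chr10:62268855-62379908 on the minus strand and moved the other way by a much smaller step. Its level was 181, 205, 203 and 201 CPM at day 0. It was 183, 151, 117, 150 and 169 CPM at day 1, and 151, 95.3, 163, 154 and 162 CPM at day 3. Day 0 and day 1 overlapped by 1 library, and every day 3 library lay below every day 0 library. The log2 fold change was -0.36 at day 1 (edgeR, standard error 0.16, adjusted p = 0.0889) and -0.44 at day 3 (edgeR, standard error 0.16, adjusted p = 0.0484). By format, the 1-digit libraries gave -0.44 at day 1 (adjusted p = 0.0446 by edgeR) and -0.32 at day 3 (adjusted p = 0.188 by edgeR), and the 3-digit libraries against day 0 gave -0.24 (adjusted p = 0.354 by edgeR) and -0.53 (adjusted p = 0.0329 by edgeR). The pooled day 3 call was lost, at -0.49 to -0.33 with an adjusted p of 0.0531 to 0.104, without any 1 of 11 libraries: the 4 of day 0, replicates 2, 4 and 5 of day 1, and replicates 1, 2, 4 and 5 of day 3. With total counts in place of TMM it was -0.30 (adjusted p = 0.205 by edgeR).

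Levels of different genes were compared only per length, as CPM per kilobase of annotated exon. On that scale Hk1 made up 97.4% ± 0.815 (SD, n = 4) of the summed level of Hk1, Hk2, Hk3 and Hkdc1 at day 0, and Hk2 made up 0.490% ± 0.250 (SD, n = 4). At day 1 the shares were 87.1% ± 4.02 and 6.43% ± 2.63 (SD, n = 5), and at day 3 they were 86.5% ± 4.20 and 4.81% ± 2.91 (SD, n = 5). Hk1 thus stayed the main message of these 4 in each library, at no less than 81.1% of the sum. The log2 ratio of Hk2 to Hk1 counts in a library lay between -8.95 and -7.41 in the day 0 libraries, between -5.01 and -3.49 on day 1 and between -5.54 and -3.57 on day 3. Both days stood apart from day 0 with p = 0.00794, the smallest that 4 against 5 libraries allow (exact permutation test, two-sided), and adjusted over 18 tests of ratios the p was 0.0714, where a ratio could pass only if at least 3 of them lay at or near that smallest p. The ratio rose in 5 of 5 libraries at either day, by a mean of 3.86 and 3.37, and in the 1-digit and 3-digit libraries by 3.54 and 4.34 at day 1 and by 2.76 and 3.79 at day 3.

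Pfkfb3 makes fructose 2,6-bisphosphate, the strongest activator of phosphofructokinase 1, and lies at chr2:11471433-11554077 on the minus strand. It was higher at day 1 and lower again at day 3. Day 0 libraries had 24.2, 17.5, 15.7 and 39.2 CPM, of which replicate 4 was the highest. At day 1 the values were 46.5, 45.3, 55.8, 62.2 and 74.0 CPM, all above day 0. At day 3 they were 29.2, 18.4, 22.4, 30.8 and 39.0 CPM, back within the range of day 0 and all below day 1. The log2 fold change was 1.23 at day 1 (edgeR, standard error 0.28, adjusted p = 0.00347), 0.21 at day 3 (adjusted p = 0.572 by edgeR) and -1.02 for day 3 against day 1 (edgeR, standard error 0.26, adjusted p = 0.0181). The calls at day 1 and of day 3 against day 1 held in all 14 fits with a library left out. When days 1 and 3 were cut down to 1 format, 1-digit or 3-digit, the fall from day 1 to day 3 was -0.89 and -0.98, with adjusted p = 0.0603 and 0.0841 by edgeR. Per length, Pfkfb3 went from 27.6% ± 6.79 of the 4 Pfkfb messages at day 0 (SD, n = 4) to 57.0% ± 7.68 at day 1 and 32.2% ± 7.06 at day 3 (SD, n = 5 each).

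Pfkp, the platelet-type subunit of phosphofructokinase 1, lies at chr13:6579768-6648777 on the minus strand. Its values were 67.1, 83.1, 73.5 and 92.6 CPM at day 0 and 112, 67.1, 95.2, 90.6 and 81.3 CPM at day 3. At day 1 the 3-digit libraries had 86.2 and 83.6 CPM, inside the range of day 0, and the 1-digit libraries had 108, 128 and 156 CPM, above it. The pooled difference at day 1 was 0.51 (edgeR, standard error 0.20, adjusted p = 0.0507), and at day 3 it was 0.18 (adjusted p = 0.504 by edgeR). The day 1 value passed the threshold in 5 of 11 other settings, at 0.47 to 0.76, and was 0.73 within the 1-digit libraries (adjusted p = 0.00300 by edgeR) and 0.10 for the 3-digit libraries against day 0 (adjusted p = 0.697 by edgeR). The difference between the formats at day 1, 3-digit against 1-digit, was -0.62 (edgeR, standard error 0.21, adjusted p = 0.0373). That call was lost without replicate 2 of day 0 or without replicates 1, 2, 4 or 5 of day 1, at -0.66 to -0.48 with an adjusted p of 0.05 to 0.18, and with total counts in place of TMM, at -0.42 with an adjusted p of 0.145. The liver-type partner Pfkl fell by 1.12 at day 3 (adjusted p = 0.0198 by edgeR) and was -0.86 at day 1 (adjusted p = 0.0504 by edgeR). Per length, Pfkp rose from 14.6% ± 2.35 of the messages of Pfkp, Pfkl and Pfkm at day 0 (SD, n = 4) to 34.8% ± 13.5 at day 1 and 28.8% ± 7.56 at day 3 (SD, n = 5 each). The log2 ratio of Pfkp to Pfkl was higher by 1.45 at day 1 and 1.41 at day 3 (exact permutation test, two-sided, p = 0.0317 and 0.0238, adjusted p = 0.114 for both). By format the difference was 2.09 in the 1-digit and 0.50 in the 3-digit libraries at day 1, and 2.05 and 0.98 at day 3, and 1 of the 3-digit libraries of either day lay within day 0.

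Aldoa, the aldolase of muscle and of most glycolytic tissue, lies on the minus strand at chr7:126795234-126809108, where GENCODE lists 2 gene models under its name. It was among the most abundant members, at 970, 944, 936 and 990 CPM at day 0. At day 1 the 3-digit libraries had 1359 and 1439 CPM and the 1-digit libraries 1135, 1120 and 987 CPM. Day 3 gave 981, 689, 761, 997 and 909 CPM, on both sides of day 0. The difference from day 0 was 0.33 at day 1 (adjusted p = 0.0971 by edgeR) and -0.15 at day 3 (adjusted p = 0.481 by edgeR), and neither passed the test. By format, day 1 was higher by 0.55 in the 3-digit libraries (adjusted p = 0.012 by edgeR), a call, and gave 0.17 in the 1-digit libraries (adjusted p = 0.292 by edgeR). Day 3 against day 1 was -0.48 (edgeR, standard error 0.15, adjusted p = 0.0394). For that contrast the 3-digit libraries gave -0.79 (adjusted p = 0.00866 by edgeR) and the 1-digit libraries -0.19 (adjusted p = 0.411 by edgeR). The pooled call was lost, at -0.52 to -0.40 with an adjusted p of 0.0504 to 0.0826, without any 1 of 11 libraries: the 4 of day 0, replicates 1 to 4 of day 1, and replicates 1, 2 and 3 of day 3.

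Pkm encodes the muscle-type pyruvate kinases, whose splice forms the counts per gene cannot tell apart, and lies at chr9:59656368-59679375 on the plus strand. The 4 libraries of day 0 lay close together at 364, 362, 386 and 374 CPM. Day 1 gave 517, 489, 553, 615 and 702 CPM, all above day 0, with the 3-digit libraries at the lower end. Day 3 parted by format, with 467, 320 and 327 CPM in the 3-digit libraries and 662 and 772 CPM in the 1-digit libraries. The log2 fold change was 0.63 at day 1 (edgeR, standard error 0.24, adjusted p = 0.0464) and 0.46 at day 3 (edgeR, standard error 0.24, adjusted p = 0.153). The day 1 call was lost, at 0.55 to 0.65 with an adjusted p of 0.0562 to 0.102, without any 1 of 9 libraries: the 4 of day 0, replicates 1, 3, 4 and 5 of day 1, and replicate 1 of day 3. When every combination of day and format had its own term, Pkm was higher at day 1 in the 1-digit (0.75, adjusted p = 0.000761 by edgeR) and the 3-digit libraries (0.44, adjusted p = 0.0469 by edgeR). For day 3 the 1-digit libraries gave 0.95 (adjusted p = 0.000423 by edgeR) and the 3-digit libraries 0.00 (adjusted p = 0.998 by edgeR). The difference between formats at day 3 was -0.95 (edgeR, standard error 0.17, adjusted p = 0.00631), and without replicate 5 of day 3 it was -0.84 (adjusted p = 0.0726 by edgeR). In 25.8% of its 50-base words the Pkm sequence matches other transcripts, most often the copy Gm6560, and reads from such stretches may be missing from its count of uniquely mapped reads.

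Pklr encodes the pyruvate kinase of liver, red cells and proximal tubule and lies at chr3:89136142-89146784 on the plus strand. In the 3 contrasts of whole days its log2 fold changes had the widest standard errors of the members. Day 0 was tight, at 34.8, 34.5, 32.7 and 42.9 CPM. At day 1 the 1-digit libraries had 27.8, 9.72 and 15.1 CPM, all below day 0, and the 3-digit libraries had 40.1 and 118 CPM. At day 3 the 3-digit libraries had 82.1, 52.9 and 93.5 CPM, all above day 0, and the 1-digit libraries had 52.3 and 30.2 CPM. Pooled, the log2 fold change was 0.22 at day 1 (edgeR, standard error 0.55, adjusted p = 0.768) and 0.78 at day 3 (edgeR, standard error 0.56, adjusted p = 0.293). Without replicate 2 of day 1, the library with 118 CPM, the day 1 value turned to -0.64 (adjusted p = 0.193 by edgeR), and with a term for format the day 3 value turned to -0.17 (adjusted p = 0.756 by edgeR). Split by format, day 1 against day 0 was -1.05 in the 1-digit libraries (adjusted p = 0.0339 by edgeR) and 1.13 in the 3-digit libraries (adjusted p = 0.0403 by edgeR). The difference between the formats at day 1 was 2.17 (edgeR, standard error 0.45, adjusted p = 0.00308). Without that replicate 2 it was 1.20 (adjusted p = 0.0937 by edgeR). On day 3 the format difference was 0.89 (adjusted p = 0.179 by edgeR), and the 3-digit libraries were above day 0 by 1.07 (adjusted p = 0.0400 by edgeR).

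The library scaling cancels in a ratio of isozymes within a library. The log2 ratio of Pkm to Pklr counts ran from 3.12 to 3.56 at day 0. It was 4.31, 5.98 and 5.53 in the 1-digit libraries of day 1, all above day 0, and 3.69 and 2.05 in the 3-digit ones. At day 3 the 1-digit libraries gave 3.66 and 4.67 and the 3-digit libraries 2.51, 2.60 and 1.81, which placed the formats on opposite sides of day 0. Over all libraries of day 1 the mean ratio was 0.95 higher, with p = 0.286 in a two-sided exact permutation test (0.493 after adjustment). Per length, Pkm held 86.9% ± 1.45 of the pyruvate kinase messages at day 0 (SD, n = 4) and from 69.4% to 97.6% in the injured libraries.

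**Figure D2:**
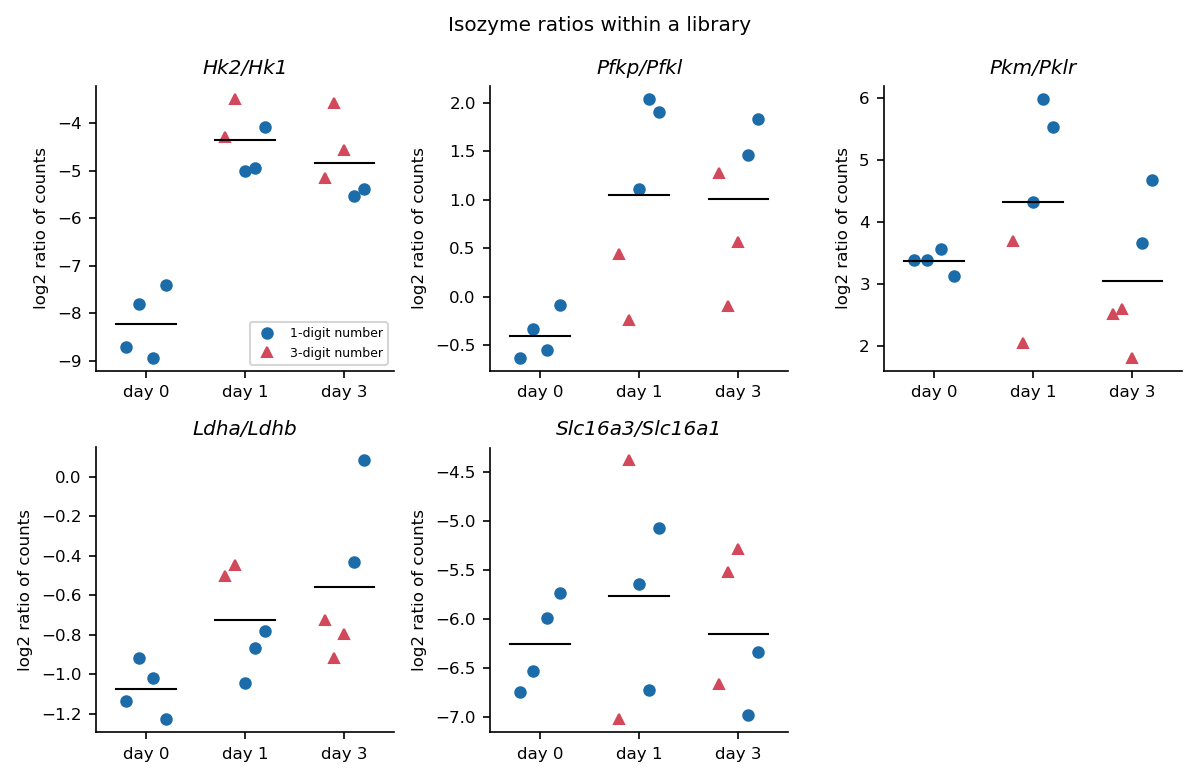
Log2 ratio of the counts of paired isozymes or transporters in each library (vertical axes, 0.5 added to both counts) by day (horizontal). Circles are 1-digit and triangles 3-digit libraries, and bars are means of a day. The Hk2/Hk1 ratio of every injured library lies above day 0, while Pkm/Pklr spreads from 1.81 to 5.98 after injury.

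Ldha encodes the lactate dehydrogenase subunit that favours making lactate from pyruvate and lies at chr7:46841475-46855627 on the plus strand. It was abundant, and its fold changes had the smallest standard errors of the members. Its values were 770, 830, 825 and 770 CPM at day 0. At day 1 they were 927, 876, 936, 955 and 880 CPM, every one above day 0 and within a narrow band. Day 3 gave 867, 802, 687, 818 and 825 CPM. The difference at day 1 was 0.20 on the log2 scale (95% interval -0.03 to 0.42, adjusted p = 0.18 by edgeR), and DESeq2 gave 0.20 with an adjusted p of 0.0278. At day 3 the difference was 0.00 (95% interval -0.22 to 0.23, adjusted p = 0.991 by edgeR). Per length, Ldhb, the subunit that favours the use of lactate, held 81.6% ± 1.41 of the messages of Ldha and Ldhb at day 0 (SD, n = 4), 77.6% ± 3.00 at day 1 and 75.4% ± 5.39 at day 3 (SD, n = 5 each). The log2 ratio of Ldha to Ldhb was higher by 0.35 at day 1 (exact permutation test, two-sided, p = 0.0556, adjusted p = 0.143) and by 0.52 at day 3 (p = 0.0397, adjusted p = 0.119), which did not pass after adjustment. By format it was 0.18 in the 1-digit and 0.60 in the 3-digit libraries at day 1, and 0.90 and 0.26 at day 3, so the format with the larger difference was not the same on both days. Of the 50-base words of Ldha, 9.03% occur in other transcripts, most often in the copy Ldha-ps2.

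Slc16a3 encodes MCT4, the transporter that carries lactate and a proton out of glycolytic cells, and lies at chr11:120948480-120960868 on the plus strand. Day 0 libraries had 0.575, 0.647, 0.948 and 1.09 CPM, from 10 to 18 reads each. Day 1 gave 1.02, 4.27, 2.04, 2.23 and 5.31 CPM, of which replicate 1 lay within day 0. Day 3 gave 2.90, 1.35, 3.27, 2.22 and 3.82 CPM, all above day 0. The log2 fold change was 1.86 at day 1 (edgeR, standard error 0.47, adjusted p = 0.00667) and 1.73 at day 3 (edgeR, standard error 0.47, adjusted p = 0.0128), and day 3 against day 1 was -0.13 (95% interval -0.93 to 0.67, adjusted p = 0.852 by edgeR). Both calls against day 0 held in the 11 other settings and in the 14 fits with a library left out. By format, the 1-digit libraries gave 1.95 and 1.88 and the 3-digit libraries 1.71 and 1.62, at day 1 and day 3. These levels rest on few reads: the opposite strand of the same locus held 4 to 13 reads per library at day 0 and 1 to 11 later. Counted without regard to strand, the log2 fold change was 1.34 at day 1 and 1.20 at day 3.

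Slc16a1, which encodes MCT1 and moves lactate in either direction, was the main message per length of Slc16a1, Slc16a3 and Slc16a7. It rose from 62.4 ± 2.11 CPM at day 0 (SD, n = 4) to 150 ± 61.0 at day 1 and 217 ± 113 at day 3 (SD, n = 5 each), by 1.26 (adjusted p = 0.0219 by edgeR) and 1.80 (adjusted p = 0.00504 by edgeR). Every day 1 library had more than every day 0 library. At day 3 the 3-digit libraries had 297, 63.4 and 129 CPM and the 1-digit libraries 285 and 312 CPM. Of these, replicate 2 at 63.4 CPM lay within the day 0 range of 59.8 to 64.9 CPM. Both transporters rose, and the log2 ratio of Slc16a3 to Slc16a1 was 0.48 above day 0 at day 1 and 0.09 at day 3 (exact permutation test, two-sided, p = 0.452 and 0.825). Leaving out 1 library moved these to between 0.14 and 0.80 and between -0.12 and 0.30, and by format the day 3 value was -0.41 in the 1-digit and 0.43 in the 3-digit libraries. Per length Slc16a3 never passed 3.58% of the messages of Slc16a1, Slc16a3 and Slc16a7. Bsg, the chaperone that carries both transporters to the membrane, was -0.30 at day 1 and -0.38 at day 3 (adjusted p = 0.106 and 0.0522 by edgeR).

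**Figure D3:**
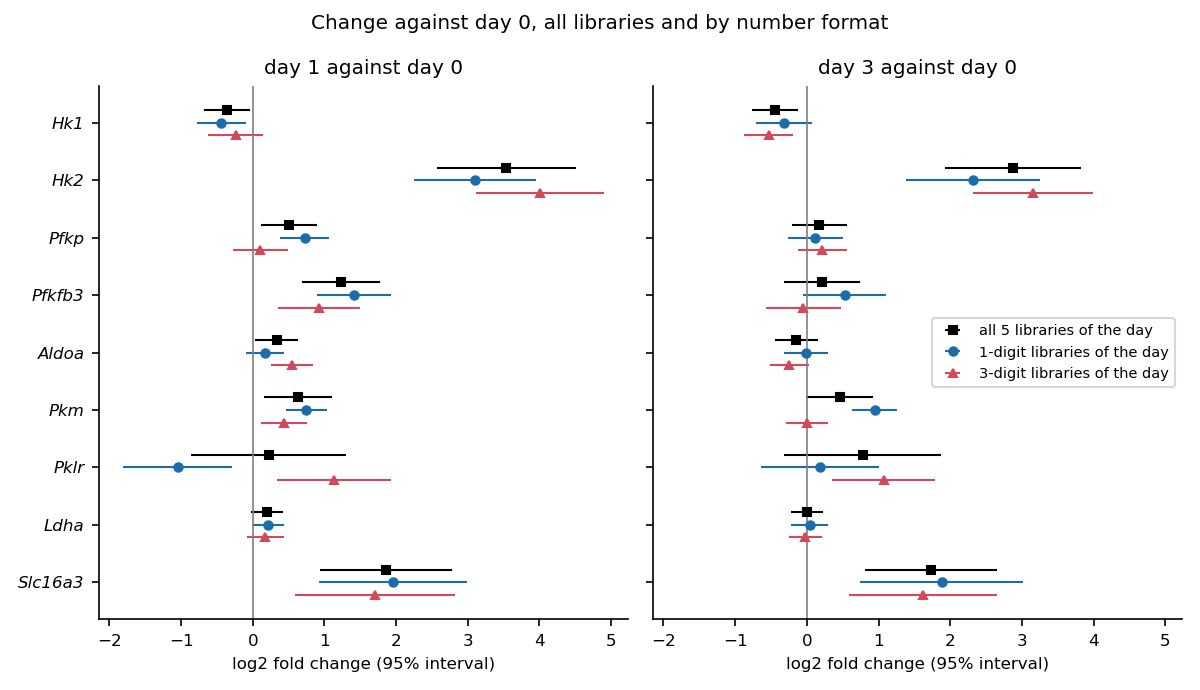
Log2 fold change of each member against day 0 with its 95% interval (horizontal axes) at day 1 (left) and day 3 (right). Squares use all 5 libraries of a day, circles the 1-digit and triangles the 3-digit libraries. Hk2 and Slc16a3 lie above 0 in all 6 estimates, and the Pklr estimates of day 1 lie on opposite sides of 0, at -1.05 and 1.13.

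With such terms for the combinations of day and format, the members called at day 1 were 7 of 9 in the 1-digit libraries (5 higher, 2 lower) and 6 of 9 in the 3-digit libraries against day 0 (all higher). The share of all 14804 genes called was 57.4% and 40.7%. On day 3 the counts were 3 of 9 and 4 of 9, where 52.6% and 31.8% of all genes were called. Day 3 against day 1 called 1 member within either format, Pfkp in the 1-digit and Aldoa in the 3-digit libraries, against 30.9% and 13.3% of all genes. Pooled, day 3 against day 1 called Aldoa and Pfkfb3, both lower, 2 of 9 against 15.9% of all genes. Between the formats themselves, 2 of 9 members differed at day 1 (Pfkp and Pklr) and 1 of 9 at day 3 (Pkm), where 34.1% and 17.8% of all genes did. Those shares rest on few libraries: without replicate 2 of day 1 the 5049 genes called at day 1 fell to 1947, and the 2639 called at day 3 became 98 without replicate 5 of day 3 and 4808 without replicate 1, and lay between 98 and 2639 without replicate 2 or 3. A test of whether the format difference itself differed between the days called 0 of 9 members with edgeR, where 17.0% of all genes were called. At an unadjusted p under 0.05 it held 3 (Pfkp, Aldoa and Pkm), and DESeq2 called 1, Aldoa.

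Groups that did not overlap were counted as well. Hk2, Pfkfb3, Pkm and Ldha of every day 1 library lay above every day 0 library, 4 of 9 members against 42.0% of all genes in either direction. At day 3 Hk2 and Slc16a3 lay above and Hk1 below, 3 of 9 against 33.4%. For day 3 against day 1, Pfkfb3 and Ldha lay below, 2 of 9 against 7.61% of all genes.

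By level per length, the order of the member messages at day 0 was Aldoa (259 ± 6.67 CPM per kilobase, SD, n = 4), Ldha (241 ± 10.2), Pkm (74.3 ± 2.21), Hk1 (23.1 ± 1.27), Pklr (11.2 ± 1.40), Pfkp (5.90 ± 0.832), Pfkfb3 (3.19 ± 1.41), Slc16a3 (0.153 ± 0.0458) and Hk2 (0.118 ± 0.0632). The ranges of Pfkp and Pfkfb3 overlapped, as did those of Slc16a3 and Hk2. At day 1 Aldoa (326 ± 50.2) and Ldha (277 ± 10.7) led again but overlapped, and Pkm followed at 115 ± 17.1 (SD, n = 5). Hk1 (18.1 ± 2.88), Pfkp (8.39 ± 2.26) and Pfkfb3 (7.51 ± 1.57) came next, the last pair overlapping, and Pklr (13 ± 13.6) spread from 3.00 to 36.4 CPM per kilobase and overlapped all 3 of them. Hk2 (1.38 ± 0.670) and Slc16a3 (0.559 ± 0.330) came last and overlapped too. At day 3 the neighbours Ldha (242 ± 20.4) and Aldoa (234 ± 36.8) overlapped, as did Pklr (19.2 ± 7.85) and Hk1 (17 ± 3.32), Pfkp (6.67 ± 1.25) and Pfkfb3 (3.70 ± 1.05), and Hk2 (0.875 ± 0.346) and Slc16a3 (0.510 ± 0.180), with Pkm (102 ± 40.4) apart from them. Lengths are those of all annotated exons of a gene together, which understates genes with many rare exons, such as Pfkp with 13401 bases.

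Of the other glycolytic enzymes, a list of 23 genes, 21 were tested. At day 1, 3 were higher (Eno2, Hkdc1 and Gapdh) and 4 lower, and at day 3, 4 were higher (Eno2, Hkdc1, Hk3 and Pfkfb1) and 6 lower, of which Gapdh, Hk3 and Pfkfb1 are named after their values were seen. The called genes were 7 of 21 and 10 of 21, against 42.1% and 33.3% of all genes. The list's median was -0.08 and -0.13, beside 0.01 and 0.05 for all genes tested. Eno2, the neuron-type enolase, was low and rose by 1.96 at day 1 (adjusted p = 0.000873 by edgeR) and 1.80 at day 3 (adjusted p = 0.00199 by edgeR), from 1.03 to 4.03 and 3.62 CPM. Hkdc1, a hexokinase-like gene that lies next to Hk1 on chromosome 10, rose by 1.52 and 1.63 (adjusted p = 0.00688 and 0.00648 by edgeR), from 2.23 to 6.41 and 6.92 CPM. Aldoc, the brain aldolase, fell by 1.57 and 1.84 (adjusted p = 0.000119 and 6.01e-05 by edgeR). Pfkm, the muscle phosphofructokinase, fell by 1.20 and 0.90 (adjusted p = 0.000807 and 0.00603 by edgeR), and Pgam2, the muscle phosphoglycerate mutase, fell by 0.69 and 1.84 (adjusted p = 0.00694 and 1.5e-05 by edgeR). The row of Eno1 held 0 or 1 read in each library, while that of its near copy Eno1b held 1531 to 4971, so the level of Eno1 could not be read from these counts.

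The list of lactate and pyruvate transport and use held 15 genes, of which 14 were tested. At day 1, 2 were higher and 7 lower, and at day 3, 2 were higher and 8 lower. The called genes were 9 of 14 and 10 of 14, against the same 42.1% and 33.3% of all genes, and the median was -0.44 and -0.53, beside 0.01 and 0.05 for all genes tested. The higher genes were Slc16a1 and Pdk4 at both days. Pdk4, a kinase that switches off pyruvate dehydrogenase and so keeps pyruvate out of the mitochondrial fuel cycle, rose from 48.4 ± 11.4 CPM (SD, n = 4) to 1293 ± 825 CPM at day 1 and 649 ± 545 CPM at day 3 (SD, n = 5 each). The log2 fold change was 4.74 at day 1 (edgeR, standard error 0.80, adjusted p = 0.00055) and 3.74 at day 3 (edgeR, standard error 0.76, adjusted p = 0.00244). The related kinase Pdk1 fell by 1.20 at day 1 (adjusted p = 0.00696 by edgeR) and was 0.54 at day 3 (adjusted p = 0.19 by edgeR), and Pdk3 fell by 1.07 and 1.51 (adjusted p = 0.00118 and 0.000176 by edgeR). Slc16a7, which encodes the high-affinity pyruvate and lactate importer MCT2, fell by 2.20 and 2.29 (adjusted p = 1.19e-06 and 1.02e-06 by edgeR), from 84.2 to 108 CPM in the day 0 libraries to 16.5 to 27.3 CPM on day 1 and 18.8 to 21.2 CPM on day 3. Per length it went from 36.3% of the 3 transporter messages to 5.38% and 4.48%.

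**Figure D4:**
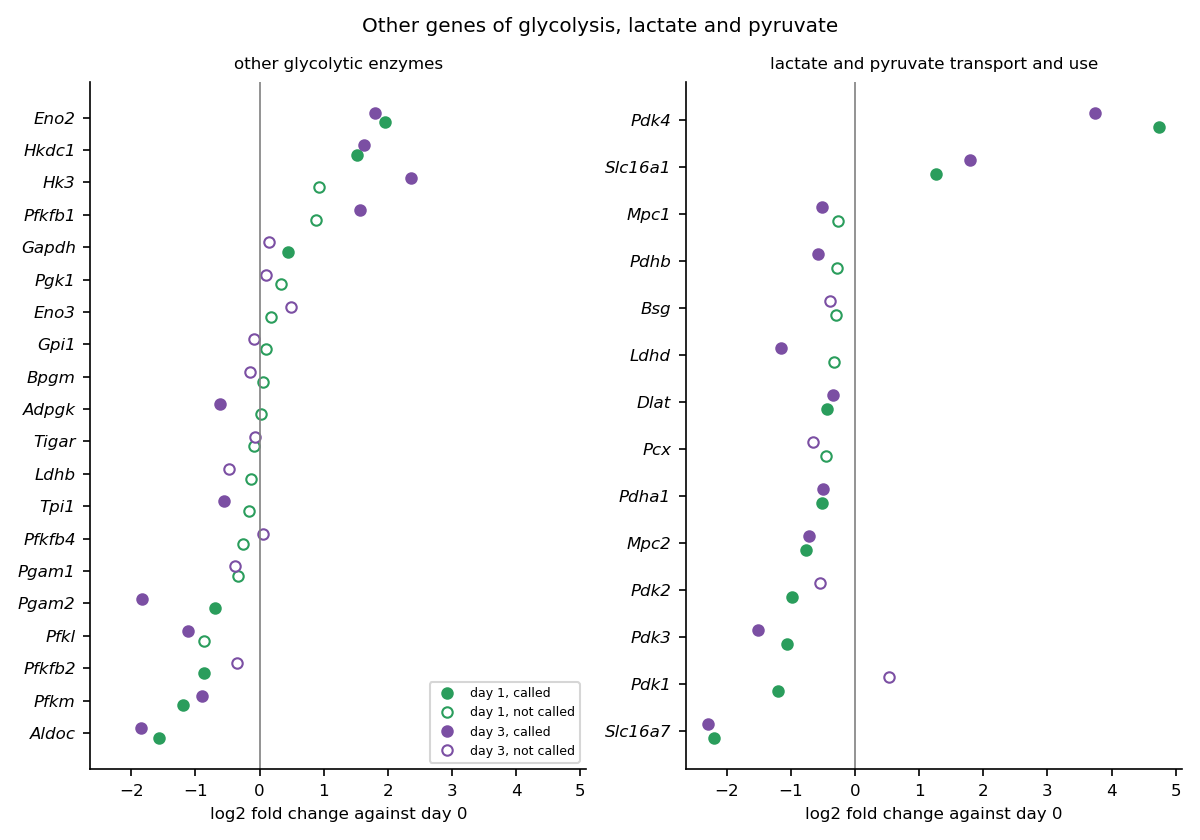
Log2 fold change against day 0 (horizontal axes) of tested genes of both lists, ordered by their day 1 value. Green marks day 1 and purple day 3, and filled points have an adjusted p under 0.05. Pdk4 stands farthest to the right and Slc16a7 farthest to the left.

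Cell type markers moved in the same libraries, and the counts of markers below stand against 42.1% of all genes called at day 1 and 33.3% at day 3. The summed level of the neutrophil list, white cells that live mainly by glycolysis, was 1.39 to 2.07 CPM at day 0, 50.8 to 221 CPM at day 1 and 19.7 to 485 CPM at day 3. Of its 8 genes, Ly6g has no row in the counts. All 7 tested genes were higher at both days, and none of these 7 was at 0 in all libraries of a day. The macrophage list summed to 132 to 221, 84.4 to 149 and 104 to 448 CPM, with 1 of 8 genes higher and 1 lower at day 1, and 3 higher and 1 lower at day 3. The fibroblast and pericyte list summed to 126 to 135, 145 to 443 and 525 to 1154 CPM, with 2 of 7 and 5 of 7 higher. The smooth muscle list summed to 142.5 to 169.8, 309 to 578 and 289 to 958 CPM, with 3 of 6 higher at both days, and the proliferation list to 9.49 to 31.9, 15.8 to 47.3 and 19.4 to 502 CPM, with 0 of 6 and 6 of 6 higher by edgeR. Their part in the rise of Hk2 and Slc16a3 was not tested. The kidney itself was plain from its proximal tubule markers, which summed to 40954 to 44469 CPM at day 0, 18291 to 45874 CPM at day 1 and 9225 to 18582 CPM at day 3, with 3 of 10 genes lower at day 1 and 5 of 10 at day 3. The summed levels of later segments were lower too: the thick limb list summed to 5922 to 9054, 3071 to 5462 and 2032 to 3333 CPM, with 3 of 4 genes lower at both days, and the list of distal tubule and collecting duct to 1194 to 1881, 783 to 992 and 312 to 638.5 CPM, with 1 of 5 and 2 of 5 lower.

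Several lists also parted by number format. On day 1, where Pklr was higher in the 3-digit libraries, 5 of 10 proximal tubule genes were called lower there, and 5 of 6 smooth muscle, 3 of 7 fibroblast and pericyte and 3 of 5 urothelium genes higher, beside 34.1% of all genes. The proximal tubule sum was 35217 to 45874 CPM in the 1-digit and 18291 to 28807 CPM in the 3-digit libraries, and replicate 2, the library with the most Pklr, had 88.8 CPM of urothelium markers against 0.954 to 12.1 CPM in the other libraries of day 1. On day 3, where Pklr differed by 0.89 in the same direction without passing the test, 4 of 10 proximal tubule genes were called higher in the 3-digit libraries and none lower, the opposite of the calls at day 1. The proximal tubule sums of the formats overlapped on day 3, at 9244 to 11216 CPM in the 1-digit and 9225 to 18582 CPM in the 3-digit libraries. There Pkm was lower in the 3-digit libraries, and so were 4 of 5 endothelium and 3 of 6 smooth muscle genes, while 6 of 6 proliferation, 5 of 8 macrophage and 3 of 4 thick limb genes were called higher, beside 17.8% of all genes. The smooth muscle sum was 777 to 958 CPM in the 1-digit and 289 to 347 CPM in the 3-digit libraries of that day, the endothelium sum 349.8 to 592 and 129 to 230.5 CPM, and the proliferation sum 19.4 to 51.1 and 281 to 502 CPM. The part of these differences in the values of Pklr and Pkm was not tested. Red cells, another home of Pklr, had 4 of 5 listed genes (the globins) at 0 in every library, and Alas2 gave 0.338 to 26.5 CPM. Whether the zeros of the globin rows reflect absent RNA or the counting was not tested.

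**Figure D5:**
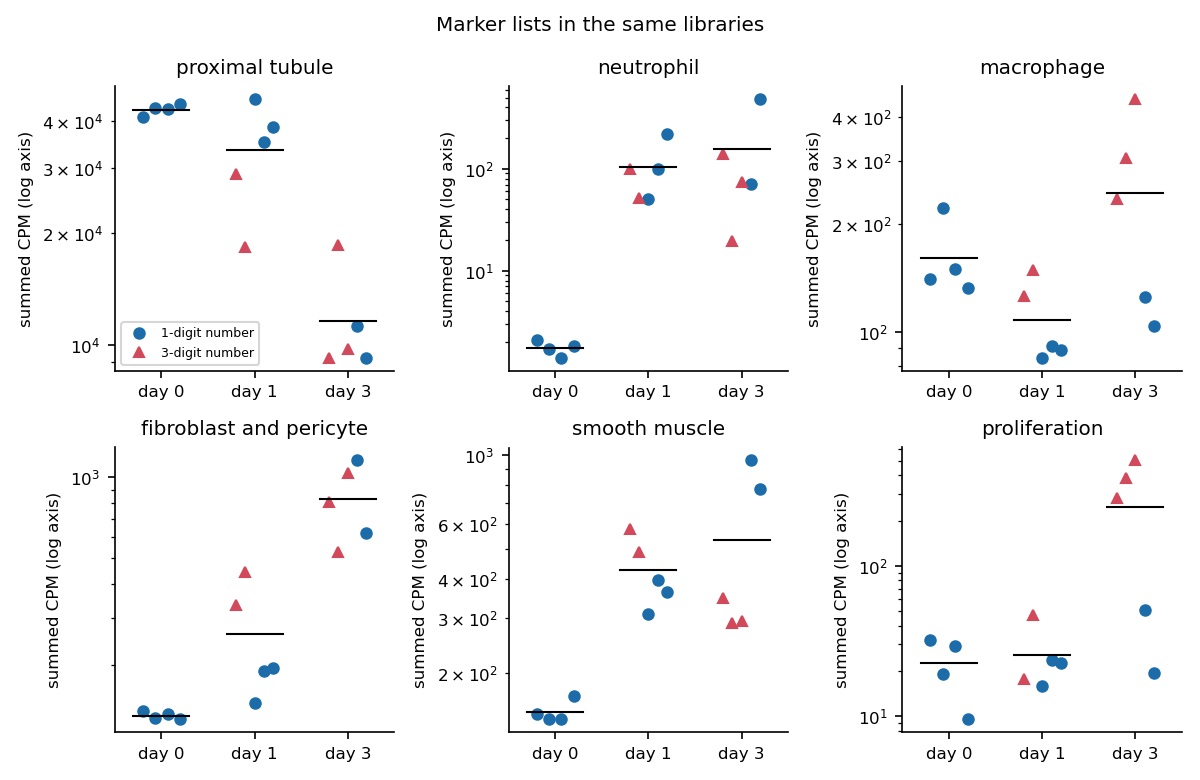
Summed CPM of 6 marker lists in each library (vertical log axes) by day (horizontal), circles for 1-digit and triangles for 3-digit libraries, bars for the mean of a day. The neutrophil sum is at most 2.07 CPM at day 0 and at least 19.7 CPM later, and the proliferation and macrophage sums part by format at day 3.

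The genes most like 3 of the members were ranked by Pearson's r of log2 CPM over the 14 libraries among 14291 tested non-members, as a description, since the points of a day share their injury and the points of a format may share a batch. For Hk2 they were Tmem173 (r = 0.948), which encodes the innate immune adaptor STING, Vcl (0.947), which encodes the adhesion protein vinculin, and Il1rn (0.945), the antagonist of the interleukin-1 receptor. For Slc16a3 they were Mbp (0.918), Gbp2b (0.899) and Plet1 (0.898). Among the 3 most like Pklr were Eef2kmt (0.933) and Them6 (0.918). Among the members, the strongest positive likeness was that of Pfkfb3 and Pkm (r = 0.738), with Pfkp and Pfkfb3 at 0.734 and Hk2 and Slc16a3 at 0.733, and Hk1 and Hk2 were the most opposed (r = -0.536).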

How the data were processed

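Total RNA was extracted with TRIzol and sequenced from Illumina TruSeq libraries, per the labels. The authors trimmed reads with Trimmomatic, aligned them to mm10 and deposited counts per gene from STAR. Versions are not given in the sources used here. The column for reverse-stranded libraries was read, since it held 98.5% to 98.75% of reads assigned to a strand. Entries that name no gene (28.99% to 38.34% of each total) stayed out of library sizes.

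Counts were scaled by TMM, filtered by filterByExpr and fitted with edgeR 4.0.16 (glmQLFit, glmQLFTest) in R 4.3.3, with a term for day over all 14 libraries, or a term for each day and number format. Benjamini-Hochberg adjustment ran over all genes tested, with a threshold of 0.05. CPM is TMM-scaled, log2 CPM had a prior count of 2, and 95% intervals are 1.96 standard errors. This normal approximation is narrower than an interval drawn from the edgeR test would be. Isozyme ratios had 0.5 counts added and were compared by two-sided exact permutation tests with SciPy 1.17.1, adjusted over 18 tests. The fits were also run on simulated counts with few changed genes, the same dispersion for every gene and no format effect. That checks the code and says nothing about error rates in these data. DESeq2 1.42.0, other scalings, filters, columns, terms and left-out libraries were alternatives. Gene models came from GENCODE vM21 (GRCm38).

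The members and lists were chosen with earlier results of these data known. Named genes were the members, their isozyme partners, Bsg, and per list and day the 2 called genes with the largest rise and the 2 with the largest fall among those at 1 CPM or more. The 3 genes most like Hk2, Slc16a3 and Pklr were added. Some genes of this rule are not reported here, and counts, medians and adjustments still include them. Marker lists were checked in the same libraries. PCR reads are not independent molecules.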

Additional observations from a re-analysis of the deposited data

Results flagged for a closer look

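Hk1 of day 0 replicate 1, at 7.50 on the log2 CPM scale, lay far below the other libraries of day 0 (7.65 to 7.68). Hk1 of day 3 replicate 2, at 6.58, lay far below the other libraries of day 3 (7.24 to 7.35). These were 2 of 45 groups of 4 or 5 libraries examined by Dixon's test, where chance alone gives about 2.25.

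Pklr differed between the number formats at day 1 by 2.17 on the log2 scale, Pfkp at day 1 by -0.62 and Pkm at day 3 by -0.95, each as 3-digit against 1-digit libraries and past the threshold in edgeR. The cause of these differences was not tested.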

How the results depend on the processing

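The rise of Hk2 and of Slc16a3 at both days and that of Pfkfb3 at day 1 kept their direction and passed the threshold in every alternative run, apart from Hk2 under a filter of at least 10 counts in every library, where it was not tested. Against the 4 members called at day 1, that filter left 2, DESeq2 called 7 and the 1-digit libraries alone 7. Of the 2 members called between day 3 and day 1, Pfkfb3 and Aldoa, total counts, no filter and the 2 days alone each left 1 (Pfkfb3), the 3-digit libraries alone 1 (Aldoa) and the 1-digit libraries alone neither, since they called Pfkp (adjusted p = 0.0218 by edgeR) and Pklr (adjusted p = 0.0248 by edgeR) instead, and leaving out a library gave 1 to 2. Of the 5 other genes of the pathway called there, the 2 days alone left 3, the 1-digit libraries alone gave 12 and leaving out a library 3 to 6. Between formats, leaving out a library gave 0 to 3 members at day 1 and 0 to 1 at day 3. For the difference between the days' format effects, with 0 called by edgeR, total counts called 2, DESeq2 1, and leaving out a library 0 to 2. Pklr at day 1 reversed to -1.01 in the 1-digit libraries alone (adjusted p = 0.0174 by edgeR). The cause was not tested. No isozyme ratio passed after adjustment in the alternatives that gave a p, which leave little room to pass and say nothing about stability, and within 1 format the ratios had no test.

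With a replicate block, a term for the replicate number, 3, 2 and 1 members were called at day 1, at day 3 and between them, and Pkm at day 1 was 0.49 (adjusted p = 0.0701 by edgeR), Hk1 at day 3 -0.50 (adjusted p = 0.0592) and Aldoa between days -0.48 (adjusted p = 0.0739). Whether the numbers pair the samples was not settled. Same-numbered libraries correlated at -0.175 to 0.261 (median 0.0555), with 4 of 13 pairs over 0.1. Libraries with different numbers correlated at -0.499 to 0.534 (median -0.00472), with 10 of 52 pairs over 0.1. These ranges overlap, and most same-numbered libraries of day 1 and day 3 share a number format, so the correlations cannot decide it. Hk2 and Slc16a3 rested on 6 to 19 and 10 to 18 reads per library at day 0, which limits their fold changes.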
